A study of Mus musculus with 12 samples.

Results

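The genes described here encode the subunits of oxidative phosphorylation, and they were followed in CD45-positive immune cells from mouse liver. Members were taken by symbol from the deposited table, as the Ndufa, Ndufb, Ndufc, Ndufs, Ndufv, Uqcr and Atp5 genes, Sdha to Sdhd, and the Cox4i, Cox5, Cox6a1, Cox6b1, Cox6c, Cox7 and Cox8a genes. Assembly factors and pseudogenes were left out. The rule gave 81 genes of 24319 entries, with 38 in complex I, 4 in complex II, 8 in complex III, 14 in complex IV and 17 in complex V. No measured value entered the choice. The prefix also took Atp5s and Atp5sl, which belong to proteins that are not core subunits of the ATP synthase, and Ndufa4 is now regarded as a complex IV subunit although its symbol places it under complex I.

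Oxidative phosphorylation takes place in the inner mitochondrial membrane. Complexes I and II pass electrons from NADH and succinate to ubiquinone, complex III passes them on to cytochrome c, and complex IV reduces oxygen, while complexes I, III and IV pump protons. Complex V, the ATP synthase, makes ATP as protons flow back. Most subunits are encoded in the nucleus and the rest in the mitochondrial genome, whose genes are not analysed here. In immune cells, activated and memory lymphocytes and some macrophage states are known to rely on this pathway to different degrees.

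All mice were C57BL/6 and on day 0 all had received human c-Myc and N-ras by hydrodynamic transfection, a rapid tail vein injection that delivers DNA mainly to hepatocytes. There were 4 groups of 3 libraries. The polyIC group was injected with polyIC, a synthetic RNA duplex that mimics viral RNA, at 4 mg/kg on days 14, 16, 18, 20 and 22, and control IgG (200 µg) on days 17, 19 and 21. The antiPDL1 group had PBS on the polyIC days and 200 µg of PD-L1 antibody on the antibody days. The combination group had both agents, and the control group had PBS and 200 µg of IgG. Livers were taken on day 24 by the treatment protocol, although the time point label gives day 22. CD45-positive cells were captured with a PE antibody and PE magnetic beads. The labels do not tie libraries to single mice, so p-values measure the spread between these libraries, which may in part be technical.

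The table gives 1 value per gene and library, read as FPKM, a fragment count scaled by transcript length and library size. Totals ran from 476111 to 677535 FPKM, and relative depth, estimated from the single-read steps among low values, from 0.466 to 1. Ptprc, the CD45 gene, stood at 206 to 487 FPKM in every library, but not evenly. It ran from 206 to 261 FPKM in control, 371 to 416 in polyIC, 268 to 340 in antiPDL1 and 381 to 487 in combination. In combination against control it passed as higher, by 0.90 on the log2(FPKM + 1) scale. Summed markers of cell types also differed between groups, and 7 of 7 cytotoxic lymphocyte markers passed as higher in combination against control (327 to 936 FPKM in control, 4810 to 5721 in combination). Kupffer cell markers (4 of 5 lower in that comparison, 1140 to 5668 against 32.6 to 166), hepatocyte markers (7 of 8 lower, 839 to 2596 against 120 to 225) and B cell markers (6 of 6 lower, 365 to 1078 against 68.0 to 143) differed the other way. In a bulk sample a change in the cell mixture and a change of RNA per cell cannot be told apart. Antibody replicate 2 stood apart from its group across all tested genes, with a mean correlation of 0.950 with the controls and 0.927 with its own group. Antibody replicate 0 was also closer to other groups, at 0.960 with combination and 0.942 with polyIC against 0.940 with its own. Antibody replicate 1 stood at 0.944 with combination and 0.945 with its own group. For control replicate 2 the mean correlation was 0.921 within control and 0.932 to polyIC. Where leaving out antibody replicate 2 or control replicate 2 changed a count or a direction, or moved a median by much, the value without it is given in most cases, though not in all.

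Summed over the 78 genes that passed a filter of at least 1 FPKM in at least 3 libraries, the subunits made up 2.20% to 3.45% of each library's total. The sums were 11185, 14184 and 11789 FPKM in control and 16715, 14552 and 12952 in polyIC. They were 22452, 21292 and 10793 in antiPDL1 and 17215, 20503 and 17457 in combination. Thus the 3 combination libraries lay above all 3 controls, and polyIC overlapped with control. The antibody group was split, with the highest sums of all 12 libraries in replicates 0 and 1 and the lowest in replicate 2. The control mean was 12386 ± 1587 FPKM (SD, n = 3 in each group). The polyIC mean was 14740 ± 1888 (1.19 times control), the antibody mean 18179 ± 6423 (1.47 times) and the combination mean 18392 ± 1832 (1.48 times). Without antibody replicate 2 the antibody mean was 21872, or 1.77 times control. Library totals also differed, and as a share of the library total the subunits made up 2.39% ± 0.0940 for control and 2.36% ± 0.0984 for polyIC. The antibody share was 2.99% ± 0.686 and the combination share 2.84% ± 0.175. On that scale the polyIC mean was not above control, and the combination libraries again lay above all 3 controls. The library total includes the small RNA entry Mir6236, which took 4.97% to 15.7% of it in control and 15.8% to 19.3% in polyIC. In antiPDL1 it took 7.59% to 11.1%, and in combination 16.2% to 20.6%. The shares without that entry were not computed, so the order of polyIC and control on this scale may depend on it.

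**Figure D1:**
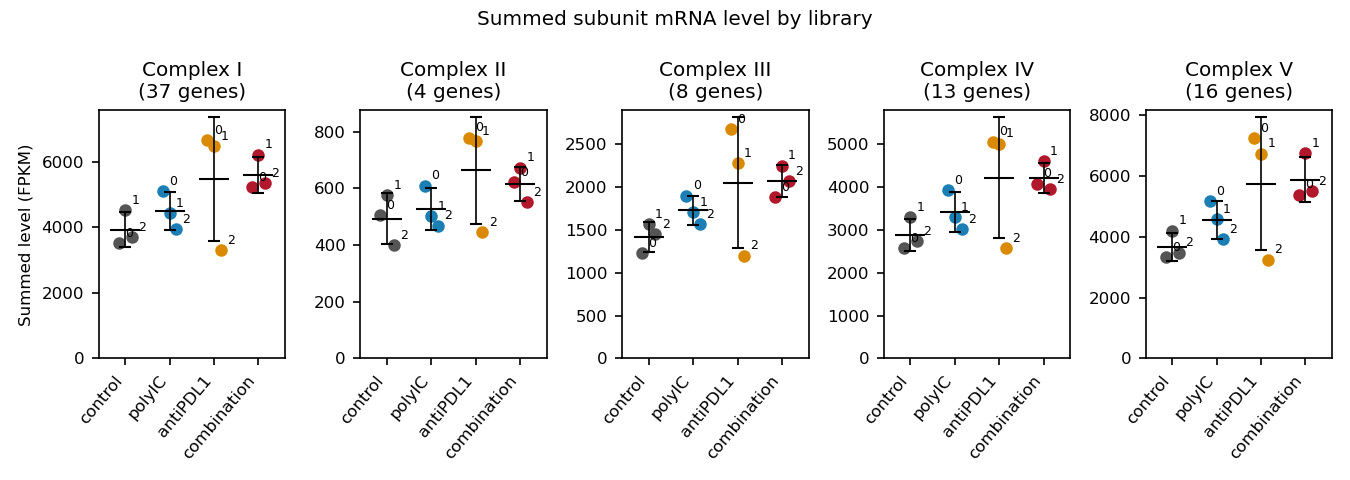
Summed FPKM (y axis) of the tested subunit genes of each complex in each library, by group. Points are libraries marked with their replicate number, and the bar and whiskers are the mean and SD of 3 libraries. Antibody replicates 0 and 1 lie far above replicate 2 in all 5 complexes.

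The split of the antibody group ran through all 5 complexes. Complex I sums were 6670, 6477 and 3304 FPKM in antibody replicates 0, 1 and 2, against 3531 to 4531 in control. Complex V sums were 7260, 6747 and 3257, against 3335 to 4211. Of the 78 tested genes, 33 had their highest value of the 12 libraries in antibody replicate 0 and 30 in replicate 1, whereas 41 had their lowest in replicate 2. The median coefficient of variation of a subunit gene was 35.9% in antiPDL1, and 12.5% to 15.6% across the other 3 groups. Other measures moved with this split. Summed cell cycle markers were 178 and 200 FPKM in antibody replicates 0 and 1 and 72.4 in replicate 2, against 47.3 to 62.2 in control. Kupffer cell markers were 529 and 1953 against 4122, and hepatocyte markers 493 and 227 against 1508. Relative depth was 0.466 and 0.556 against 0.758. Their part in the result was not tested.

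The levels themselves differed widely between subunits, as FPKM compares genes per length of transcript. The highest means over the 12 libraries belonged to Atp5e (942 FPKM), the epsilon subunit of the ATP synthase, Atp5k (881), its e subunit, and Cox4i1 (802), the ubiquitous form of cytochrome c oxidase subunit 4. In complex III the highest was Uqcrh (594), the hinge protein, in complex I Ndufa3 (457), an accessory subunit, and in complex II Sdhd (184), a membrane anchor. Core catalytic subunits were lower, such as Ndufs1 at 31.5 FPKM and Ndufv1 at 54.9, the iron-sulphur and flavin subunits by which complex I takes electrons from NADH. Several genes of ubiquitous subunits were listed at low values, among them Ndufab1, the mitochondrial acyl carrier protein, at 1.79 FPKM, Atp5g1 at 6.69 and Ndufb4 at 8.56.

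In combination against control, 75 of 78 subunit genes had a positive difference, with a median of 0.51 on the log2(FPKM + 1) scale, on which all differences here are given. Over all 11991 tested genes the median was 0.054 and 53.4% were positive. With limma and Benjamini-Hochberg adjustment over all tested genes, 7 of the 78 passed an adjusted p of 0.05 as higher and 0 as lower. Of all tested genes 29.4% passed, 13.1% as higher and 16.3% as lower. The subunits' 8.97% is below the share of all genes that passed as higher, so in this fit the count does not set them apart. Without antibody replicate 2, 41 of the 78 passed as higher, a larger share than that of all genes in that run. That library is in neither group compared, and the median difference was 0.51 with and without it. The 4 groups share 1 estimate of the spread of a gene, so a count can change while the differences stay. In 53 of 78 all 3 combination libraries lay above all 3 controls, where the share of all genes was 25.6%.

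**Figure D2:**
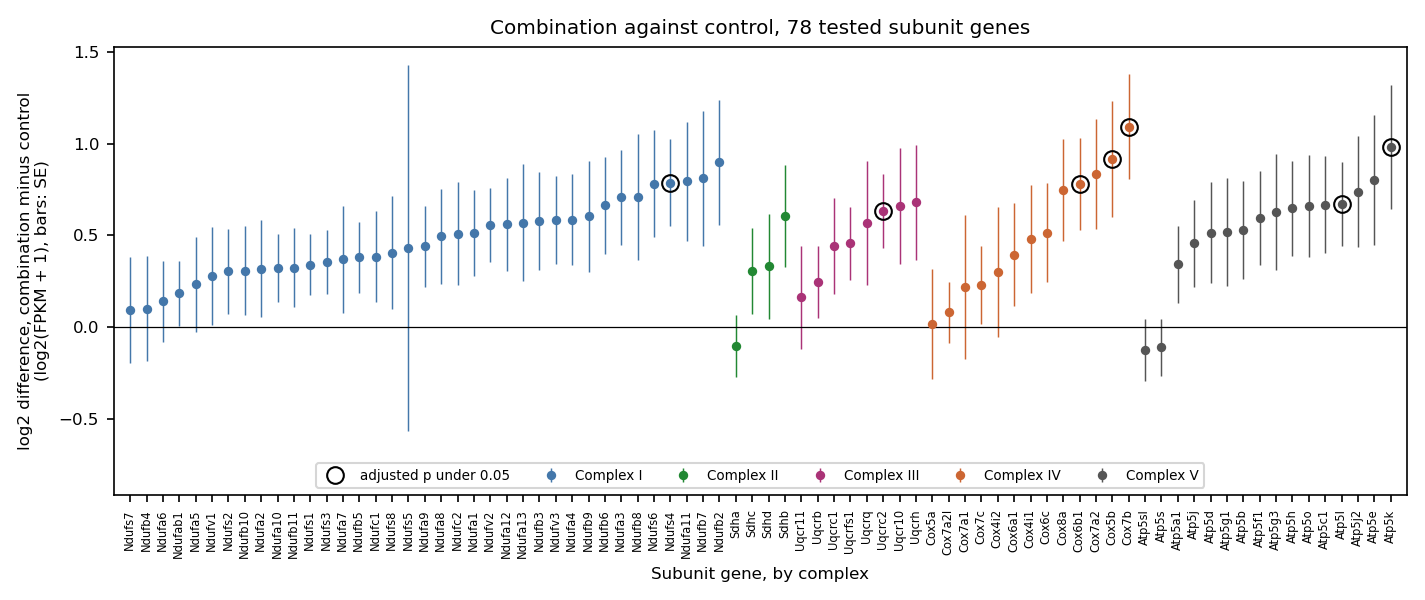
Difference of log2(FPKM + 1), combination minus control (y axis), for the 78 tested subunit genes (x axis), ordered within each complex, with the SE of the fit. Rings mark the 7 genes with a limma adjusted p under 0.05. Most genes lie between 0.2 and 0.9, and Sdha, Atp5s and Atp5sl lie under 0.

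Among the 7 genes, 3 encode small subunits of complex IV. Cox7b, a nuclear subunit of cytochrome c oxidase, had control values of 96.7, 123 and 94.3 FPKM and polyIC values of 175, 145 and 149. Its antibody values were 265, 204 and 119, and its combination values 162, 258 and 263. Both polyIC and combination lay wholly above control, and antibody replicate 2 lay within the control range. It rose in combination by 1.09 ± 0.29 (SE; limma adjusted p = 0.0170). Cox6b1, which faces the intermembrane space, was at 402, 521 and 443 FPKM in control and 685, 832 and 823 in combination (0.78 ± 0.25, adjusted p = 0.0372). Cox5b, a zinc-binding subunit, was at 47.3, 61.4 and 52.9 in control and 94.5, 123 and 91.2 in combination (0.92 ± 0.32, adjusted p = 0.0491). For both genes the groups did not overlap.

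Complex V gave 2 genes, both of small membrane-domain subunits that lie where ATP synthase dimers form. Atp5k was at 485, 740 and 476 FPKM in control and 906, 1299 and 1114 in combination (0.98 ± 0.34, adjusted p = 0.0489). Atp5l, the g subunit, was at 16.6, 20.8 and 15.8 in control, 26.8, 30.8 and 24.5 in polyIC and 30.1, 25.9 and 30.0 in combination (0.67 ± 0.23, adjusted p = 0.0461). For Atp5l the polyIC and combination values lay side by side, both above control. Complex I gave Ndufs4, an accessory subunit of the NADH-oxidising arm whose loss causes Leigh syndrome, with 36.0, 47.8 and 37.2 FPKM in control and 57.5, 72.3 and 81.7 in combination (0.79 ± 0.24, adjusted p = 0.0286). Complex III gave Uqcrc2, a core protein, with 101, 130 and 116 in control, 176, 155 and 160 in polyIC and 155, 200 and 187 in combination (0.63 ± 0.20, adjusted p = 0.0352). Some differences of like size did not pass, such as Ndufb2 at 0.90 (adjusted p = 0.0684) and Cox7a2 at 0.83 (adjusted p = 0.0578).

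**Figure D3:**
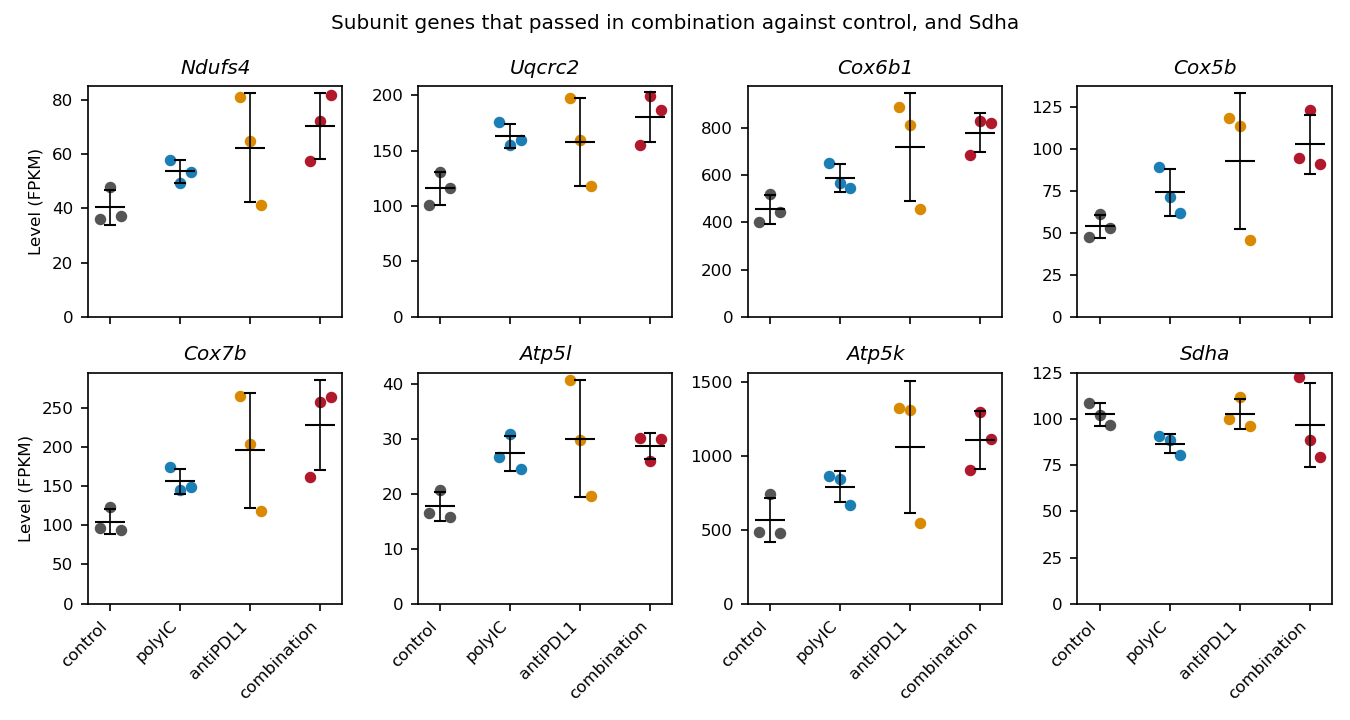
FPKM (y axis, from 0) per library by group for the 7 subunit genes that passed in combination against control and for Sdha. Points are libraries in replicate order, and bars and whiskers are the mean and SD of 3 libraries. The combination lies above control without overlap in the 7 genes and overlaps with it in Sdha.

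These calls sit near the threshold and depend on single libraries. The count of 7 became 0 without control replicate 0, without combination replicate 1 or without combination replicate 2, and 41, all higher, without antibody replicate 2, where 19.9% of all genes passed as higher. It became 3 without control replicate 1, control replicate 2 or combination replicate 0, and 2 without any one of the 3 polyIC libraries. Antibody and polyIC libraries are in neither group, so they reach these counts only through the shared spread and the set of genes tested. The median stayed between 0.43 and 0.60 in the runs with 1 library left out, and it was 0.29 after quantile normalization.

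By complex, the median difference in combination was 0.44 in complex I (1 of 37 genes passing), 0.32 in complex II (0 of 4), 0.51 in complex III (1 of 8), 0.48 in complex IV (3 of 13) and 0.61 in complex V (2 of 16), where 13.1% of all genes passed as higher. Without control replicate 2 the complex II median was 0.13, and the other 4 lay between 0.42 and 0.54. Without antibody replicate 2 the genes passing as higher were 20 in complex I, 1 in complex II, 3 in complex III, 6 in complex IV and 11 in complex V. Each was a larger share than that of all genes in that run. With all 12 libraries, 26 subunit genes had an unadjusted p under 0.05, all higher, where 42.6% of all genes passed in either direction. The share of all genes that passed as higher alone is not given, so these figures do not rank the subunits. Of the 26, 11 were in complex I and 0 in complex II. Within complex I the 10 genes of the NADH-oxidising N module had a median of 0.46 and the 5 genes of the ubiquinone-reducing Q module 0.30. Complex II was uneven. Sdha, the flavoprotein that oxidises succinate, was at 109, 102 and 96.7 FPKM in control, 90.7, 88.9 and 80.7 in polyIC and 123, 89.0 and 79.3 in combination. Its polyIC values lay below all controls (-0.24), and its combination values overlapped with them (-0.10, limma adjusted p = 0.672). Sdhb, the iron-sulphur partner of Sdha, was at 130, 161 and 109 in control and 192, 231 and 183 in combination, without overlap (0.61, adjusted p = 0.120).

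Some other subunits also stood near 0 in combination, with differences of 0.017 for Cox5a, 0.081 for Cox7a2l, 0.093 for Ndufs7, a Q module iron-sulphur subunit, and 0.16 for Uqcr11, and none of these passed. Atp5s and Atp5sl, the complex V names outside the core enzyme, were at -0.11 and -0.12. After quantile normalization Cox5a, Cox7a2l, Ndufs7 and Uqcr11 were all under 0. Ndufs5 was erratic, with control values of 14.2, 18.5 and 8.03 FPKM and polyIC values of 12.6, 28.1 and 0.305. Its antibody values were 0.0339, 0.416 and 6.08, and its combination values 11.1, 22.1 and 22.5. No other tested subunit gene with a mean above 5 FPKM fell to near 0 in single libraries, and the differences of Ndufs5 are not read here.

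Paralogues show which tissue forms were listed at higher levels. Cox4i1 exceeded its hypoxia- and lung-linked paralogue Cox4i2 in every library, at 514 to 1149 against 0.0955 to 2.80 FPKM. Cox7a2, the liver form, was at 127 to 315 FPKM and Cox7a1, the heart and muscle form, at 1.86 to 6.89. Cox7a2l, a supercomplex factor of the same family, had a pattern of its own, with 197, 195 and 204 FPKM in polyIC above every other library, whose highest value was 172. That difference did not pass (polyIC against control 0.43). Ndufa4 was at 318 to 664 FPKM, while Ndufa4l2, a hypoxia-induced relative, reached at most 0.616 and was not tested. Of the 3 genes for the c subunit, which forms the rotor ring of the ATP synthase and is the same mature protein from each gene, Atp5g3 was at 311 to 800 FPKM and Atp5g1 at 3.87 to 10.2. Atp5g2 was listed at 0 in 10 libraries and at 0.0357 and 0.0475 in the others, and Cox7b2 was listed at 0 in all 12, so neither was tested. A value at or near 0 is not read here as absence of a form, since the ubiquitous Ndufab1 was also listed low, at 1.79 FPKM.

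For polyIC alone, against the same controls, the median was 0.20 with 67 of 78 genes positive, against -0.014 and 48.3% over all genes. It was 0.097 without polyIC replicate 0, 0.12 without control replicate 0 and 0.31 without control replicate 1. Cell markers moved with polyIC as well. Cytotoxic markers summed to 4397 to 5457 FPKM (327 to 936 in control) and cell cycle markers to 128 to 195 (47.3 to 62.2 in control, 203 or more in combination). Their part in the subunit differences was not tested. In limma 0 of 78 passed, where 3.64% of all tested genes did. At an unadjusted p under 0.05 there were 3, all higher (Atp5l, Cox7a2l and Uqcrc2), where 22.2% of all genes passed in either direction. Groups did not overlap in 15 genes as higher, among them Uqcrc2, Cox7b and Atp5l, and in 1, Sdha, as lower. Those shares compare with 16.2% of all genes as higher and 12.4% as lower. Uqcrh was at 292, 430 and 596 FPKM in control and 670, 639 and 611 in polyIC (0.60).

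The antibody alone gave a median of 0.42 with 75 of 78 genes positive, against 0.0069 and 50.9% over all genes. In limma 0 of 78 passed, where 0.208% of all tested genes did. At an unadjusted p under 0.05 there were 8 higher and 1 lower (Ndufs5), where 17% of all genes passed. Without overlap 0 subunit genes were higher and 1, Ndufs5, lower, against 4.61% and 7.89% of all genes. Without antibody replicate 2 the median became 0.73, and 56 subunit genes passed as higher and 1, Ndufs5, as lower, where 12% of all tested genes passed as higher. In that run 27 were of complex I, 2 of complex II, 6 of complex III, 10 of complex IV and 11 of complex V, led by Uqcr10, a small complex III subunit, at 1.07 (adjusted p = 0.00622) and Cox5b at 1.10 (adjusted p = 0.00693). With control replicate 2 left out as well, the count was 54 higher and 1 lower in antiPDL1, 30 higher in combination and 3 higher in polyIC, where 14.5%, 21.1% and 10.3% of all genes passed as higher.

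Adding the antibody to polyIC gave a median of 0.30 between combination and polyIC, with 74 of 78 genes positive against 57.5% of all genes. In limma 0 of 78 passed, where 1.23% of all genes did, and 0 had an unadjusted p under 0.05, where 13.5% of all genes did. Without overlap 27 genes were higher, against 13.3% of all genes. Adding polyIC to the antibody gave a median of 0.082 between combination and antiPDL1, with 61 of 78 genes positive against 55.6% of all genes. In limma 0 of 78 passed and 1 (Ndufs5) had an unadjusted p under 0.05, where 0.125% and 14.4% of all genes did. Its direction was not stable, since the median was -0.23 without antibody replicate 2, -0.0035 without combination replicate 1 and -0.032 with array quality weights. The interaction, which asks whether the effect of polyIC differs with and without the antibody, had a median of -0.13 over the subunits, with 16 of 78 positive against 54.5% of all genes. In limma 0 of 78 passed and 1 (Ndufs5) had an unadjusted p under 0.05, where 0.025% and 2.44% of all genes did. This median was -0.47 without antibody replicate 2, 0.033 without antibody replicate 0 and 0.023 without antibody replicate 1, with 0 passing in each.

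Abundant and short transcripts as a whole were also higher in the treated groups. Transcript lengths from GENCODE M21 were available for 78 of 78 subunit genes and 95.5% of tested genes. The length of a gene was the median over all its listed protein-coding transcripts, which may include partial ones, and need not be that of the main transcript. Ndufs1, at 651 bases, and Uqcrc1, at 533, thus fell in the shortest bin. In combination against control, the 39 subunit genes with a length under 700 bases had a median difference of 0.58. The 238 other genes of that length with a mean of at least 50 FPKM had a median of 0.43, with 84.5% positive, and all 787 other genes of that length had 0.19. From 700 to under 1500 bases the medians were 0.46 for 33 subunit genes and 0.35 for 687 other abundant genes. For polyIC the medians under 700 bases were 0.23 and 0.20, and for the antibody 0.48 and 0.31. Without antibody replicate 2 the antibody medians were 0.81 and 0.59, and without control replicate 2 the polyIC medians were 0.17 and 0.20, with the subunits the lower of the pair. Other abundant genes of like length thus had medians of the same sign as the subunits. The part of length and abundance in the result was not tested further.

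**Figure D4:**
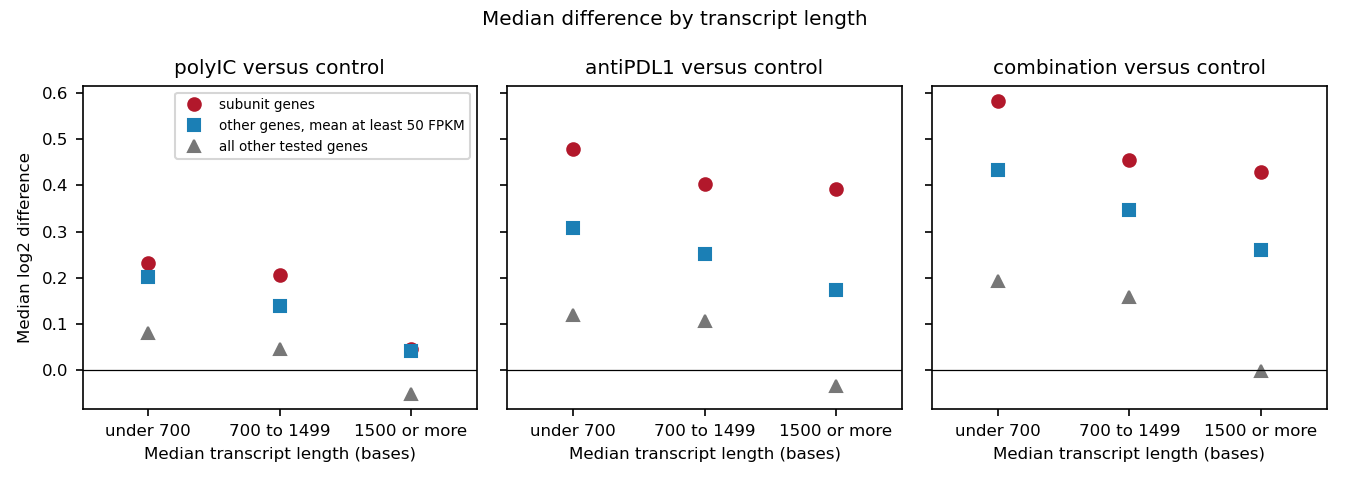
Median difference of log2(FPKM + 1) against control (y axis) by median transcript length (x axis), for subunit genes, for other genes with a mean of at least 50 FPKM and for all other tested genes. Points are medians over genes, with no error. In combination the subunit genes under 700 bases stand at 0.58 and the other abundant genes at 0.43.

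Other mitochondrial gene groups were compared in the same fit. Of 76 tested genes for mitochondrial ribosomal proteins, which translate the subunits encoded in the mitochondrial genome, 15 passed as higher in combination and 0 as lower, with a median of 0.46, where 13.1% of all genes passed as higher. They included Mrpl57 at 0.86, Mrps14 at 0.66, Mrpl18 at 0.77 and Mrpl32 at 0.83. Of 46 assembly factor genes 4 passed as higher, namely Ndufaf7 (0.62) and Ndufaf5 (0.82) of complex I, Cox11 (0.53), which delivers copper to complex IV, and Sdhaf2 (0.61), which flavinates Sdha, with a median of 0.29. Of 18 genes of the tricarboxylic acid cycle and pyruvate dehydrogenase 1 passed, Idh3a at 1.03, a subunit of the NAD-dependent isocitrate dehydrogenase, with a median of 0.25. Of 17 carrier and electron transfer genes Vdac3, an outer membrane channel, passed at 0.65. None of the genes in these mitochondrial lists passed as lower, although without control replicate 2 there was 1 lower assembly factor gene and 2 lower cycle genes. With all 12 libraries in the fit, only the ribosomal list had a larger share passing than all genes. With the antibody and with polyIC alone, 0 genes of these lists passed in limma, and the mitochondrial ribosomal medians were 0.34 and 0.22. The antibody libraries were split here as in the subunits, with ribosomal sums of 4481, 4326 and 2167 FPKM and assembly factor sums of 1676, 1579 and 876 in replicates 0, 1 and 2. Without replicate 2 the antibody's ribosomal median was 0.64 with 45 of 76 genes higher, and 11 of 46 assembly factor genes were higher, where 12% of all genes passed as higher. In combination, 39 ribosomal and 13 assembly factor genes then passed as higher, where 19.9% of all genes did. In the same run 5 of 18 cycle genes and 6 of 17 carrier and electron transfer genes passed as higher. Each of these lists then had a larger share passing than all genes. Without control replicate 2 as well, 29 ribosomal, 10 assembly factor, 4 cycle and 3 carrier and electron transfer genes passed as higher in combination. In that run 1 assembly factor gene and 2 cycle genes were lower, and the carrier share passing as higher was below that of all genes. With only control replicate 2 left out, the counts as higher were 12, 3, 1 and 1.

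Regulators of mitochondrial genes showed a less uniform picture. Of 18 tested regulators 2 passed in combination, both higher, a share below that of all genes (13.1%). The count was 3 without control replicate 2, 4 without antibody replicate 2 and 5 without both, all higher. The shares without antibody replicate 2 and without both were above those of all genes in the same runs. Nrf1, a factor that binds many subunit promoters, was at 11.9 ± 1.47 FPKM in control and 17.7 ± 2.63 in combination (SD, n = 3 each; 0.53, limma adjusted p = 0.0318), and Gabpb1, a partner of the ETS factor Gabpa, rose by 0.70. Gabpa was at 16.0 ± 1.23 and 19.5 ± 1.87 FPKM, Tfam, which packages mitochondrial DNA, at 15.8 ± 3.09 and 20.1 ± 1.84, and Esrra at 21.0 ± 7.35 and 19.9 ± 2.60, none passing. The coactivator gene Ppargc1a was at or under 0.156 FPKM in every group mean, and Ppargc1b was at 1.35 ± 0.576 and 0.970 ± 0.409. Cycs, the cytochrome c gene, was listed at 0.823 ± 0.204 and 1.09 ± 0.0439 FPKM.

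Since many subunit genes had the same direction, their promoters were searched for sites of factors known to act on them. RefSeq windows of 300 bases (GRCm38.p6, 250 before and 50 after the start) were found for 68 of the 81 genes. On either strand, GCGCA followed by any base and GCGC, a core of the NRF1 site, was in 17 of 68 genes (25%), against 11.6% of 9307 tested genes and 5.19% of all 27025 genes with a window. ATGGCGG, a core of the YY1 site, was in 11 (16.2%) against 9.55% and 4.69%. TNAAGGTCA, an ERR alpha site, was in 3 (4.41%) against 0.903% and 1.43%, and CCGGAAG, an ETS core, in 16 (23.5%) against 20.7% and 9.93%. CCAAT was in 30 (44.1%) against 43.2% and 41.1%. A match is only a match of letters, and no test was made of these shares.

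The 250 bases before the start are printed, 5′ to 3′, for 3 genes that passed in combination and for Sdha, which did not. These were chosen because they hold NRF1 or ETS matches. Of the other passing genes with a window, Cox5b and Ndufs4 have no match in these bases and Cox7b has only a CCAAT box. The coordinates are those of GRCm38.p6, and capitals mark matches to the 5 motifs on either strand. In Atp5k the NRF1 match begins 50 bases before the start. Cox6b1 has an ETS match 28 bases before the start and CCAAT boxes farther up. Atp5l has a CCAAT box and an ETS match at the far end. Sdha holds 3 NRF1 matches.
Atp5k, chr5:108434400-108434649, - strand: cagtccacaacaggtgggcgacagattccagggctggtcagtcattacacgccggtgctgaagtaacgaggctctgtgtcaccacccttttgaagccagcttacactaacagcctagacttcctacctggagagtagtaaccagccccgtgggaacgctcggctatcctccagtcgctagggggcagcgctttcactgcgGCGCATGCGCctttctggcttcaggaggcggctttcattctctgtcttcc
Cox6b1, chr7:30626115-30626364, - strand: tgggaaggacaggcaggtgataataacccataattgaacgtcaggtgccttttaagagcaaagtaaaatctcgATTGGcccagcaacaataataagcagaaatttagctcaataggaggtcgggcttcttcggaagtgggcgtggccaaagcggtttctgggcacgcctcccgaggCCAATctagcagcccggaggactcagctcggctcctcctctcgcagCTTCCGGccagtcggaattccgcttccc
Atp5l, chr9:44920743-44920992, - strand: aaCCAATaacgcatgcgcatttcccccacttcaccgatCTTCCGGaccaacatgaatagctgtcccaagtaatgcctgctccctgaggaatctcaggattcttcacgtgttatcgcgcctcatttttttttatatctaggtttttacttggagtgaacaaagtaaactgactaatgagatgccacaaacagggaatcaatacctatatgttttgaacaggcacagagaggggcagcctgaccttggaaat
Sdha, chr13:74350241-74350490, - strand: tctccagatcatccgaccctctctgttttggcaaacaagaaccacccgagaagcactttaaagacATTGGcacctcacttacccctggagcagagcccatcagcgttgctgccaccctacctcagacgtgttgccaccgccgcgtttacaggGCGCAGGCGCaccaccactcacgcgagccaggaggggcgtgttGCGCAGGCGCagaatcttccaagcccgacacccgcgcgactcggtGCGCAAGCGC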

How the data were processed

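The authors deposited 1 table with 1 value per gene symbol for each of 12 libraries, for which the submitters' processing notes name Cuffdiff and the build mm9. The table does not name its unit, and FPKM was read from the values the authors deposited (decimals, unequal library totals, steps that scale with gene). Sources used here do not give the Cuffdiff version, aligner, annotation or library scaling. Library columns were matched by the sample descriptions. The table holds no counts, hence only relative depth was estimated, from 2444 low genes and 51 of 66 library pairs, and no counting interval was computed.

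A gene listed at 0 throughout 1 group and at 5 FPKM or more throughout another, small RNA genes aside, was treated as a failed estimate, which removed 9 genes, none of them a subunit gene. The filter on low values (1 FPKM or more in 3 or more libraries) left 11991 tested genes. Differences were tested by limma-trend (limma 3.58.1, R 4.3.3, two-sided) after a log2(FPKM + 1) transform, with all 12 libraries in 1 model whose only term was group, and Benjamini-Hochberg adjustment over all tested genes at 0.05. The pseudocount of 1 understates the change of low genes. The fit was run on simulated data with independent noise and, for each gene, 1 spread in all 4 groups. That setting lacks the split of the antibody group, so it does not test the counts reported here. Tables and figures used Python 3.11.15, pandas 2.3.3, numpy 2.4.6 and matplotlib 3.10.9.

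Genes named were every subunit gene that passed, the extremes of each complex in combination against control, its highest gene by level, the paralogue sets, the untested members and, from the other mitochondrial lists, up to 4 genes that passed plus 7 regulators. Others (Ndufs1, Ndufv1, Ndufab1, Ndufb4, Ndufs5, Atp5s, Uqcr10) were chosen after their values were seen. The members and lists were chosen with earlier results of these data known. Alternatives were another pseudocount, other filters, 2 rescalings, separate fits per comparison, a block for replicate number, quality weights and leaving out each library. The runs without control replicate 2 and antibody replicate 2 together, and the other lists and length medians without either, were added after seeing the data. Promoters came from RefSeq tables of GRCm38.p6, a build other than mm9, so they describe the genes only.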

Additional observations from a re-analysis of the deposited data

How the results depend on the processing

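The number of subunit genes passing in combination against control, 7 in the fit reported, was 3 with no filter, 4 with a mean of at least 5 FPKM, 12 after quantile normalization, 26 after median-of-ratios rescaling, 24 in a fit of only these groups and 52 with array quality weights (51 higher, 1 lower). The shares of all genes higher in those runs were 8.9%, 12.9%, 16.7%, 18.1%, 14.5% and 31.1%. The subunits' share was above that of all genes after median-of-ratios rescaling, in the fit of only these groups and with array quality weights. It was below that of all genes in the other runs named. Quality weights also gave 4 in polyIC (13.5% of all genes higher) and 29 in antiPDL1 (10.2%) against control, 31 in combination against polyIC (15.6%) and 1 in combination against antiPDL1 (2.89%). With 1 library left out the counts ran from 0 to 41 in combination, 0 to 57 in antiPDL1 and 0 to 1 in polyIC, and stayed at 0 in the other comparisons. Without control replicate 2 and antibody replicate 2 together (chosen after seeing the data) they were 30, 55 and 3. With 1 library out, the median ran from 0.27 to 0.73 in antiPDL1, from -0.23 to 0.23 in combination against antiPDL1 and from -0.47 to 0.033 for the interaction. Without both libraries it was -0.23 in combination against antiPDL1. The other medians moved by less than 0.29, the SD between replicates of the subunit median, pooled over all 4 groups. That pooled value includes the split antibody group. For the mean log2(FPKM + 1) of the subunits, the SD was 0.503 among antibody libraries. The next highest was 0.193, among polyIC libraries. The polyIC median of 0.20 (0.097 to 0.31 with 1 library out) was below the pooled SD and close to the 0.193 of its own group.

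Among named genes in combination against control, signs turned only in genes that did not pass. After quantile normalization Ndufs7 was -0.10, Uqcr11 -0.068, Cox5a -0.21 and Cox7a2l -0.17, and with quality weights Cox5a was -0.13. With 1 library out, the lowest and highest values were -0.016 and 0.26 for Ndufs7, -0.27 and 0.25 for Cox5a, -0.089 and 0.53 for Cox7a1, -0.093 and 0.20 for Cox7a2l and -0.28 and 0.028 for Sdha. Without both libraries Cox5a was -0.27 and Cox7a1 -0.086. The cause was not tested.

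With the replicate number as a block the count in combination was 16 (15.6% of all genes higher). The labels do not say what a number shares, and deviations of same-numbered libraries correlated from -0.28 to 0.31 (4 of 18 pairs over 0.1), with 6 of 12 libraries closest to one of their own number, so the numbers were not used as pairs.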
